A study of Homo sapiens with 10 samples.

Results

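GIFN2, a protein that the series title counts among the partial agonists of interferon gamma (IFNG), was set against wild-type IFNG in A549, an established line of human lung cancer cells. The comparison rests on 4 of the series' 10 libraries, GIFN2 A and B and wild-type IFNG A and B, chosen by their titles. Cells were given GIFN2 or wild-type IFNG for 48 h, and untreated cells of the same line serve as the base of every value. Both proteins have the same recorded dose, 62 nM, where a digit may be missing after a decimal point. What was changed in GIFN2 is not stated in the labels. The letters A and B name 2 biological replicates per group. P-values and SEs come from a fit on all 10 libraries. They measure a spread pooled over all groups, not that of these 4 libraries alone.

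IFNG is a cytokine made mainly by T cells and natural killer cells. It acts as a dimer that gathers the receptor chains IFNGR1 and IFNGR2 at the cell surface. Signalling from the receptor switches on genes of antigen presentation, antiviral defence and inflammation, and lowers others. A partial agonist is a ligand that binds the receptor but evokes less than the full response even when it is plentiful.

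The deposited tables hold 1 log2 ratio per line, treated over untreated of the same letter, for 20812 lines. The names in the first column are not paired with the values: the values of wild type A never rise from a line to the next, while 99.6% of the first 450 names run in alphabetical order. The lines are called genes here and numbered by position, no gene can be named, and neither the cell line's markers nor any pathway could be checked by name. Of the lines, 13276 held a value other than 0 in at least 2 of the 8 treated libraries and were tested. The read depth is unknown. A wild type and a GIFN2 ratio of the same letter share their untreated library, so the untreated level cancels when one is subtracted from the other.

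GIFN2 called forth nearly the whole wild type response. Plotted gene by gene, GIFN2 followed wild type through most of the range and lay clearly below it among the largest rises. Of the 891 genes that stood at least 2-fold above untreated in wild type B, 619 also did so in wild type A and 619 in GIFN2 A. Over all tested genes, 7.0% stood that high in wild type A and 7.72% in GIFN2 A. In the reverse reading, 929 genes passed 2-fold in wild type A, of which 619 passed it in wild type B and 579 in GIFN2 B, against 6.71% and 5.85% of all tested genes. As many of these genes passed 2-fold in GIFN2 A as in wild type A, with 524 in common, and somewhat fewer in GIFN2 B than in wild type B, with 518 in common. The libraries were not centred for these counts, and genes within 0.5 log2 units of untreated in wild type B averaged 0.14 log2 units higher in GIFN2 A than in wild type A.

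**Figure D1:**
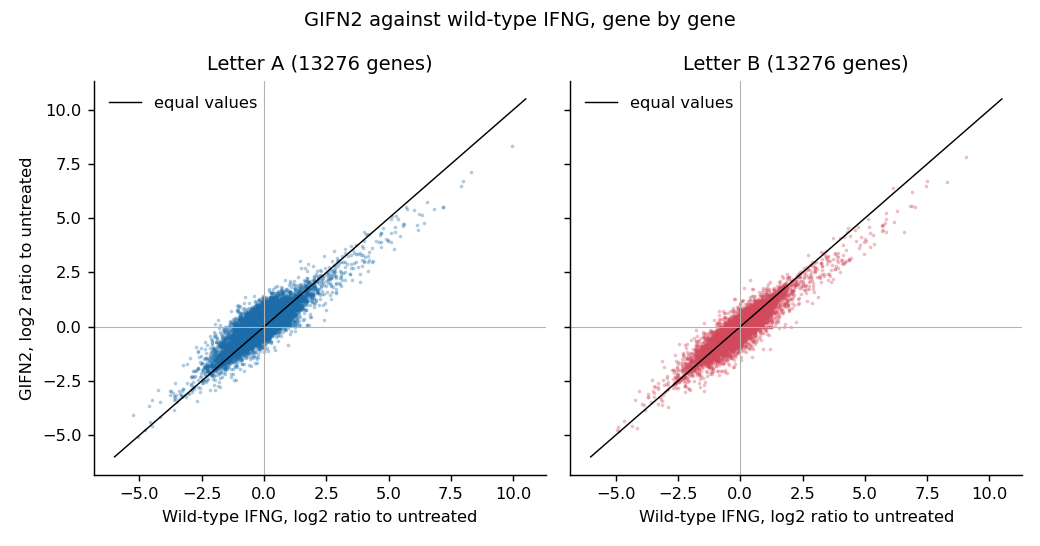
Log2 ratio to untreated cells under GIFN2 (vertical) against that under wild-type IFNG (horizontal), in letter A (left) and letter B (right), 1 point for each of 13276 tested genes. The line marks equal values, and the points drop below it at the upper right in both letters.

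At a higher mark GIFN2 fell short in both letters. Of the 224 genes at least 4-fold above untreated in wild type B, 183 were so in wild type A and 167 in GIFN2 A, where 1.7% and 1.49% of all tested genes were. Of the 226 genes at least 4-fold above in wild type A, 183 were so in wild type B and 164 in GIFN2 B, against 1.69% and 1.36% of all. None of the 224 genes stood below untreated in GIFN2 A, and 4 of the 226 did in GIFN2 B, while 1 of the 224 did in wild type A and 0 of the 226 in wild type B.

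Responses of 1 protein with the other close to untreated were rare, though not all genes past 2-fold under 1 protein passed it under the other. Of the 13276 tested genes, 619 were at least 2-fold above untreated in both letters under wild type and 559 under GIFN2. Under both proteins 471 genes were so. No gene was at least 2-fold above untreated in both letters under GIFN2 while wild type stayed within 0.25 log2 units of untreated in both. The reverse, a 2-fold wild type rise with GIFN2 within 0.25, was found for 4 genes. Among falls, 819 genes were at least 2-fold below untreated under wild type in both letters, 662 under GIFN2 and 558 under both proteins. No such fall under GIFN2 had wild type within 0.25, and 1 such fall under wild type had GIFN2 within 0.25.

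No single gene was told apart between GIFN2 and wild-type IFNG by the test across all genes. At an adjusted p under 0.05, limma called 0 of 13276 genes below wild type (0.0%) and 0 above it (0.0%), and 990 genes had an unadjusted p under 0.05, 432 lower and 558 higher. With each library centred on its median the unadjusted split turned, to 544 lower and 478 higher. The smallest adjusted p was 0.0531, and it rose to 0.271 without an untreated library and to 1 in a fit on the 4 GIFN2 and wild type libraries alone, which has 1 residual degree of freedom. The median half-width of the 95% intervals was 0.41 log2 units, and for 83.6% of genes the whole interval lay between a 2-fold lower and a 2-fold higher level. Counts of 0 therefore do not show that single genes responded alike. Alternative settings gave up to 15 calls, all of them below wild type.

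To find where along the wild type response GIFN2 fell short, genes were grouped by the wild type ratio in one letter and the difference, GIFN2 minus wild type, was taken in the other, so that the value that placed a gene in its group did not enter its difference. The 2 libraries of a letter were not centred on each other. The 7600 genes within 0.5 log2 units of untreated in wild type B had a mean difference of 0.14 in A, and the 7294 such genes chosen in wild type A had a mean difference of -0.033 in B. These are called reference genes, and differences are given relative to them, a scaling chosen after seeing the data. Means over all chosen genes without this step are given with the 2-fold groups.

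The deficit was found among strong rises and grew with their size. Genes that rose by 1 to 2 under wild type in the other letter had a relative difference of -0.13 in A (667 genes) and -0.075 in B (703). For rises of 2 to 3 it was -0.33 in A (111 genes) and -0.34 in B (124). Both letters gave nearly the same value there. For rises of 3 to 4 it was -0.63 (58 genes) and -0.61 (46), and for rises of 4 to 6 it was -0.86 and -0.79 (43 genes each). The top group, with rises over 6, stood at -1.30 in A (12 genes) and -1.17 in B (13). The mean of A and B thus went from -0.10 ± 0.04 (SD of letters, n = 2) at rises of 1 to 2, through -0.34 ± 0.01, -0.62 ± 0.01 and -0.82 ± 0.05, to -1.23 ± 0.10 at rises over 6. Each step between neighbouring groups was larger than the SD of the letters in either. Grouped by the mean of wild type A and B, where the grouping value enters the difference, the mean of the letters at rises of 1 to 2 was -0.21 in place of -0.10.

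**Figure D2:**
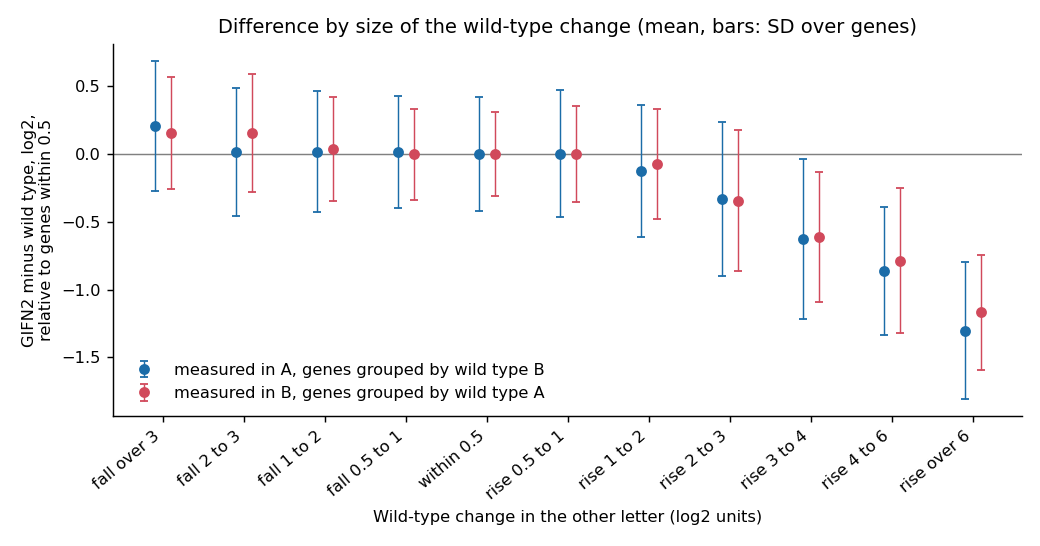
Mean of GIFN2 minus wild type (log2, relative to the reference genes) for genes grouped by the wild type change in the other letter, from falls over 3 log2 units on the left to rises over 6 on the right. Points are means in A and B and bars are the SD over genes; both letters lie between -0.0027 and 0.036 from falls of 2 to rises of 1, at 0.21 and 0.15 at falls over 3, and at -1.30 and -1.17 at rises over 6.

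On the linear scale, genes that rose by 1 to 2 under wild type reached a GIFN2 level of 91.5% of the wild type level in A and 94.9% in B, as geometric means relative to the reference genes. At rises of 2 to 3 the level was 79.4% and 78.8%, and at rises over 6 it was 40.6% and 44.6%. The share of genes below the reference difference rose alongside. It was 64.8% in A and 55.3% in B at rises of 1 to 2, where 58.2% of all tested genes in A and 46.4% in B were below. It was 75.7% and 71.8% at rises of 2 to 3, 86.2% and 87.0% at 3 to 4, and 97.7% and 86.0% at 4 to 6. All 12 and all 13 genes of the top groups were below.

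With genes grouped by wild type in the other letter, steps of 0.25 log2 units located the start of the deficit close to a 2-fold rise. Between a 2-fold fall and a 2-fold rise there were 8 such steps, whose relative differences lay between -0.028 and 0.022 in A and between -0.010 and 0.0056 in B. Each of the 8 steps from 1 to 3 lay below that range in both letters. The first of them, from 1 to 1.25, stood at -0.066 in A (316 genes) and -0.035 in B (331). The step from 1.75 to 2 stood at -0.27 and -0.19. The last, from 2.75 to 3, stood at -0.46 (21 genes) and -0.59 (25).

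**Figure D3:**
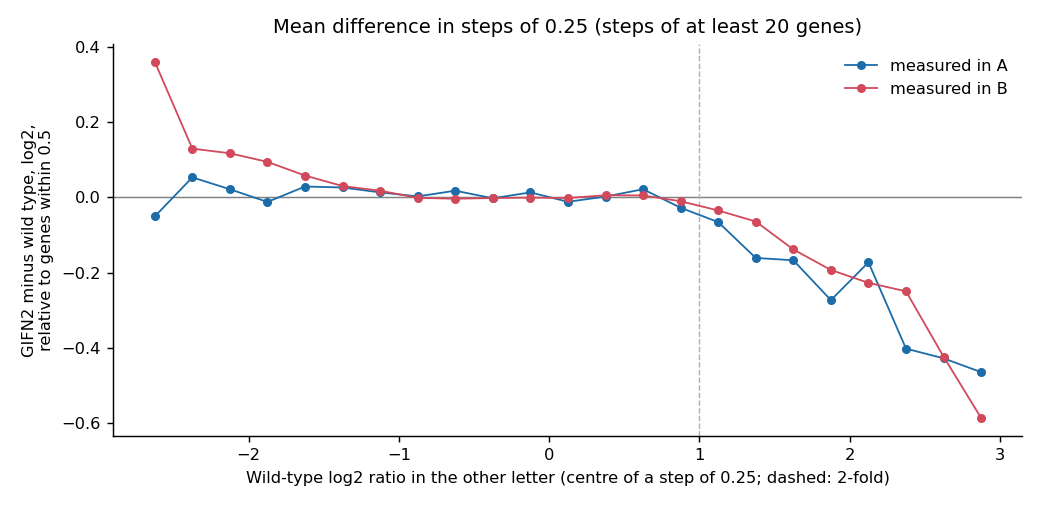
Mean of GIFN2 minus wild type (log2, relative to the reference genes) in steps of 0.25 of the wild type ratio in the other letter, for steps of at least 20 genes. Both letters run flat from a 2-fold fall to a 2-fold rise (dashed line at 1) and slope down beyond it.

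Genes grouped by wild type in one letter mostly stood closer to untreated in the other letter. Genes that rose by 0.5 to 1 in wild type B averaged 0.49 in wild type A and 0.63 in GIFN2 A. Relative to the reference genes the difference there was 0.0029 in A (1737 genes) and -0.00072 in B (1474). Where genes were grouped by GIFN4, another analogue in the series, in the other letter, the group of 0.5 to 1 stood at -0.080 in A and -0.067 in B. Grouped by the mean of wild type A and B it was -0.14 and -0.061, and grouped by the mean of GIFN4 A and B, relative to genes within 0.5 under GIFN4, it was 0.11 and -0.033. Whether a small deficit was seen below a 2-fold rise thus depended on how genes were grouped.

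With genes grouped by wild type in the other letter, the GIFN2 share of the wild type change went from complete to between 81.4% and 83.4% and then stayed there. At rises of 0.5 to 1 and relative to the reference genes, the share was 100.5% in A and 99.9% in B. At rises of 1 to 2 the share was 89.1% and 93.0%, and at rises of 2 to 3 it was 85.4% and 84.8%. It was 81.4% and 82.1% at rises of 3 to 4, 82.3% and 83.4% at 4 to 6, and 81.8% and 83.0% at rises over 6. From rises of 3 upward the groups of a letter differed by less than 2 percentage points. In this grouping the share thus fell between a 2-fold and an 8-fold rise and was level above it, while the difference in log2 units went on growing. Shares by size were not computed for groups set by GIFN4, so whether the share is level there was not tested. Over genes raised at least 2-fold by GIFN4 in the other letter, the share without centring averaged 89.0% over the letters. By GIFN4 in the other letter the relative difference of the group of 0.5 to 1 already stood at -0.080 in A and -0.067 in B.

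**Figure D4:**
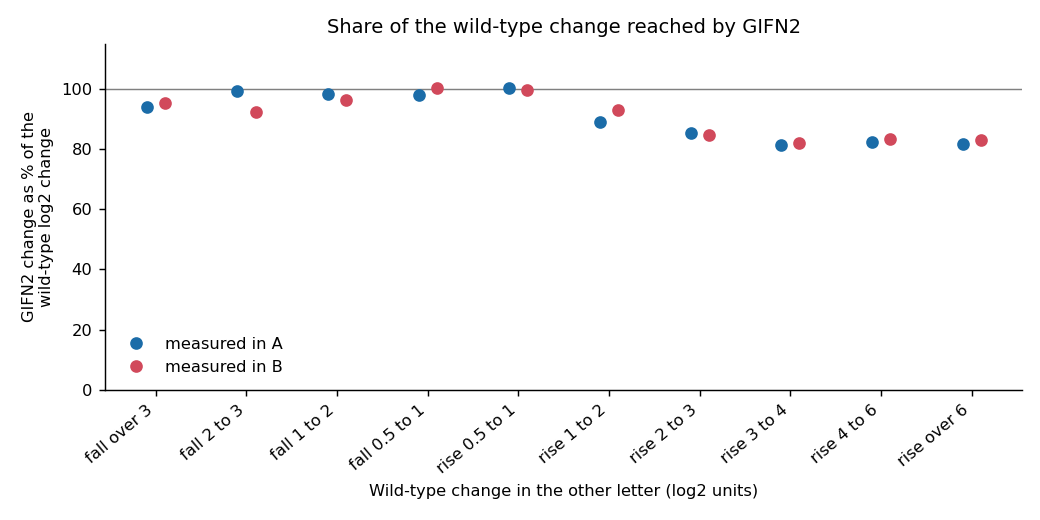
GIFN2 change as a percentage of the wild type log2 change, relative to the reference genes, for genes grouped by the wild type change in the other letter. Points are letters A and B; falls lie between 92.3% and 100.5%, and rises go from about 100% at 0.5 to 1 to between 81.4% and 83.4% from 3 upward.

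Over all genes at least 2-fold above untreated in the other letter, the mean difference without centring was -0.10 in A and -0.22 in B, or 93.9% and 86.6% of the wild type rise. The letters moved closer relative to the reference genes, at -0.24 and -0.19 and at 86.1% and 88.4%. With 2 libraries against 2, the smallest two-sided p of an exact permutation test is 0.333, and the group means are given without a p.

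Relative to the reference genes the falls showed smaller differences, whose size depended on the grouping. Of the 1196 genes at least 2-fold below untreated in wild type B, 819 were so in wild type A and 699 in GIFN2 A, against 10.8% and 7.03% of all tested genes. Of the 1436 such genes in wild type A, 819 were so in wild type B and 804 in GIFN2 B, against 9.01% and 9.04%. Fewer of them passed the mark in GIFN2 than in wild type in A and nearly as many in B, and in A the reference genes also stood higher under GIFN2 than under wild type, by the 0.14 given above. Genes that fell by 1 to 2 under wild type had a relative difference of 0.017 in A (995 genes) and 0.036 in B (1223), where a positive value means a smaller fall under GIFN2. Falls of 2 to 3 gave 0.015 in A (165 genes) and 0.15 in B (173), so the letters differed by more than the value in A. At falls of 1 to 2 the mean of the letters was 0.027, and it was 0.094 when genes were grouped by GIFN4 in the other letter and 0.15 by the mean of wild type A and B. In steps of 0.25, the relative difference in B grew from 0.018 at falls of 1 to 1.25 to 0.13 at falls of 2.25 to 2.5 (51 genes). It was 0.36 at falls of 2.5 to 2.75 (21 genes) and 0.16 at falls of 2.75 to 3 (17 genes). In A it stayed between -0.051 and 0.053 over the same steps. The deepest falls, over 3, gave 0.21 (35 genes) and 0.15 (38). GIFN2 reached 98.5% and 96.5% of the wild type fall at 1 to 2, 99.3% and 92.3% at 2 to 3, and 94.0% and 95.5% at falls over 3. Fewer genes than over all lay below the reference difference among the deeper falls in B, 33.0% at 2 to 3 and 28.9% at over 3 against 46.4%, and in A the shares were 50.9% and 37.1% against 58.2%. Of the 178 genes with a mean wild type ratio under -2, 49.4% were above the reference difference in both letters, against 18.4% of all tested genes. The wild type values that chose these 178 genes enter their differences, which favours a smaller fall under GIFN2, and its part in the count was not tested. At matched size, rises of 2 to 3 reached 85.4% and 84.8%. In these groups the gap between rises and falls was wider than that between the letters, though only narrowly in B. Past 2-fold and without centring, the order of rise and fall depended on the letter and the choice of genes. Chosen by wild type in the other letter, rise and fall shares were 93.9% and 88.0% in A and 86.6% and 98.3% in B. By GIFN4 in the other letter they averaged 89.0% and 89.5% over the letters, and by mean wild type 86.1% and 87.1%.

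Part of the falls held identical values under GIFN2 and wild type. The GIFN2 and wild type values were identical to the third decimal, and not 0, in 388 tested genes in A and 448 in B, or 2.92% and 3.38%. These stood at a median wild type ratio of -0.40 in A and -0.57 in B. They made up 8.86% of the 1196 genes lowered at least 2-fold in A and 5.36% of the 1436 in B, and 0 of the 224 and 226 genes raised at least 4-fold. GIFN3, the third analogue, held the same value as well in 282 of the 388 genes and 320 of the 448. In 202 and 229 of these GIFN4 held it too. Without the identical values, GIFN2 reached 97.0% in A and 95.5% in B of the fall over genes lowered at least 2-fold, against 98.2% and 95.7% with them. The sources used here do not say how such values arose.

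The same genes were next followed in all 4 libraries, grouped by their mean GIFN4 ratio and set relative to the 8817 genes within 0.5 under GIFN4. The GIFN4 libraries are not among the 4 compared, but some of their values equal those of wild type, as given above. In the 554 genes that GIFN4 raised by 1 to 2, wild type stood at 1.35 in A and 1.39 in B and GIFN2 at 1.37 and 1.31, so the proteins overlapped. This depended on the grouping. With genes grouped by GIFN4 in the other letter alone, the relative difference at rises of 1 to 2 was -0.17 in A and -0.13 in B. In the 88 genes raised by 2 to 3, wild type stood at 3.22 and 3.28 and GIFN2 at 2.86 and 2.82. The gap exceeded the distance between the letters of either protein. In the 27 genes raised by 3 to 4 the values were 4.83 and 4.72 under wild type and 4.14 and 4.16 under GIFN2, and in the 15 genes raised by over 4 they were 6.60 and 6.29 against 5.68 and 5.67. The GIFN2 libraries lay below both wild type libraries in these 3 groups. In the 459 genes that GIFN4 lowered by 1 to 2, wild type stood at -1.56 and -1.56 and GIFN2 at -1.50 and -1.49.

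The 12 genes with the highest mean wild type ratio all lay lower under GIFN2 than under wild type within each letter. The wild type values that chose them enter their differences and p-values, which favours a lower GIFN2 value. The part of this choice was not tested. Gene 1, the highest, had 9.97 in wild type A, 9.06 in wild type B, 8.32 in GIFN2 A and 7.80 in GIFN2 B. Gene 2 had 8.29 and 8.31 under wild type and 7.12 and 6.69 under GIFN2. Gene 5 had 7.20 and 7.02 under wild type and 5.51 and 5.51 under GIFN2. In these 3 genes both GIFN2 values were lower than both wild type values, with no overlap. The fitted difference was -1.46 ± 0.20 for gene 1 (SE, n = 2; adjusted p = 0.132, limma), -1.39 ± 0.17 for gene 2 (0.101) and -1.60 ± 0.13 for gene 5 (0.0531).

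Gene 9 had the widest gap of the 12, at 6.42 and 6.57 under wild type and 4.77 and 4.38 under GIFN2, a fitted difference of -1.92 ± 0.16 (SE, n = 2; adjusted p = 0.0531, limma). Genes 3, 4, 6, 10 and 7 had fitted differences of -1.03, -1.18, -1.49, -1.23 and -1.34. Genes 8, 14 and 11 had the smallest differences, with -0.75, -0.78 and -0.82. Gene 8 had 6.52 and 6.91 under wild type and 5.74 and 6.19 under GIFN2, so it reached 88.0% of the wild type ratio in A and 89.6% in B, where gene 9 reached 74.2% and 66.6%. The 2 genes thus had similar wild type ratios and differed in the share that GIFN2 reached, in the same order in both letters. The 8 genes of this list besides genes 1, 2, 5 and 9 had adjusted p between 0.103 and 0.553 (limma).

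**Figure D5:**
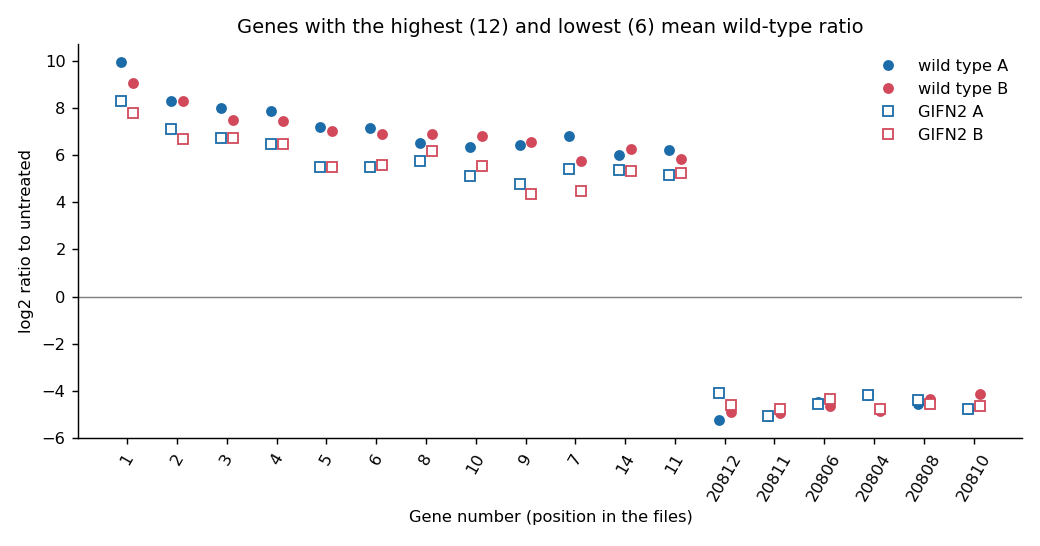
Log2 ratio to untreated of the 12 genes with the highest and the 6 with the lowest mean wild type ratio, numbered by position, for wild type (filled circles) and GIFN2 (open squares) in A and B. GIFN2 lies below wild type of the same letter in all 12 rises, while among the falls GIFN2 lies above both wild type values in gene 20812. The wild type values shown chose these genes, which favours GIFN2 values nearer to untreated. A square can hide a circle of the same value.

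Of the 6 genes with the lowest mean wild type ratio, gene 20812 alone had both GIFN2 values above both wild type values, with -5.26 and -4.91 under wild type and -4.08 and -4.62 under GIFN2. Gene 20810 had -4.76 and -4.14 under wild type and -4.76 and -4.67 under GIFN2, the lower mean being that of GIFN2. Gene 20808 had -4.56 and -4.34 against -4.38 and -4.57, and gene 20806 had -4.48 and -4.67 against -4.57 and -4.36. Genes 20811, 20804 and 20810 held the same value in GIFN2 A and wild type A, which were -5.07, -4.18 and -4.76. The fitted differences of the 6 genes ran from -0.27 to 0.73, with adjusted p from 0.628 to 1 (limma), and the sign of 5 of them turned under some setting.

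Ranked by the smaller of their 2 differences, the genes furthest below wild type in both letters were genes 155, 9, 25, 5, 64 and 47. Gene 155 had 2.48 and 1.76 under wild type and 0.77 and -0.030 under GIFN2, which leaves little of the rise. Gene 64 had 3.85 and 3.71 against 2.06 and 2.20, and gene 47 had 4.16 and 3.99 against 2.55 and 2.53. Gene 25 had 5.22 and 4.97 against 3.57 and 3.35. Their adjusted p were 0.147, 0.0749, 0.242 and 0.0749 (genes 155, 64, 47 and 25; limma). These 4 genes matched whole reads under 20 in some library, so the size of their differences is uncertain. Genes 5 and 9 were not matched. Rises of their size could hardly be matched over 10 to 100 untreated reads, so their read support is unknown.

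The genes furthest above wild type in both letters were genes 18583, 17527, 20497, 19830, 13592 and 20669. Gene 18583 had -0.76 and -0.95 under wild type and 0.49 and 0.19 under GIFN2. Gene 13592 was listed at 0 in wild type A and had -0.084 in wild type B, and stood at 1.11 and 0.82 under GIFN2. Gene 20669 had -2.17 and -2.49 against -1.26 and -1.63. Their fitted differences were 1.20 ± 0.18, 1.01 ± 0.13 and 0.89 ± 0.13 (SE, n = 2), with adjusted p of 0.135, 0.0939 and 0.135 (limma). All 6 matched whole reads under 20 in some library. Of the 6, 5 stood below untreated in both wild type libraries, and the gaps were smaller than those of the 6 genes at the other end.

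Genes at the 2-fold mark itself showed no common direction. Just inside it, gene 859 had 1.04 and 0.96 under wild type and 0.78 and 0.77 under GIFN2, gene 1037 had 0.95 and 1.05 against 0.47 and 0.23, and gene 712 had 1.15 and 0.86 against 1.02 and 0.94. Just outside it, gene 1019 had 0.95 and 1.04 against 0.86 and 0.98, gene 541 had 1.30 and 0.69 against 1.10 and 0.89, and gene 1471 had 0.76 and 1.23 against 0.93 and 1.004. Genes 859, 1037 and 1019 were lower under GIFN2 in both letters, and the other 3 differed in sign between the letters.

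Among strong rises the deficit was not the same in every gene. In both letters 95 genes stood at 3 or more under wild type, of which 19 matched few reads. GIFN2 reached between 53.4% and 110.0% of the wild type ratio in A, with a median of 83.4% and middle 50% between 76.9% and 91.9%. In B it reached 56.8% to 109.1%, with a median of 81.8% and middle 50% between 72.0% and 89.6%. None of the 95 had a GIFN2 ratio under 1 in either letter. Relative to the reference genes, 83 of the 95 were below wild type in both letters, where 23.0% of all tested genes were, and 1 was above in both, where 18.4% were. In both letters 21 were at least 2-fold below, against 0.279% of all tested genes. Choosing genes by a high wild type value favours a lower value elsewhere, and its part in these counts was not tested.

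Among strongly raised genes the differences of the 2 letters were moderately correlated. The differences of A and B share no library, and over all 13276 genes they correlated at a Pearson r of -0.046 across genes, which are not independent replicates. Over the 130 genes raised by 2 or more under GIFN4 the r was 0.62 and Spearman's rho was 0.61. Grouped by the mean of wild type A and B, r was 0.18 over 594 genes raised by 1 to 2, 0.48 over 108 raised by 2 to 3, 0.36 over 47 raised by 3 to 4 and 0.63 over 59 raised by 4 or more. These values describe the libraries and carry no p. The genes of a group differ in the size of their rise, whose part in r was not tested.

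GIFN3 and GIFN4 were read against the same wild type libraries, so their values are given only side by side. At rises of 2 to 3 the relative difference was -0.33 in A and -0.34 in B for GIFN2, -0.33 and -0.33 for GIFN3, and -0.83 and -0.73 for GIFN4. At rises over 6 it was -1.30 and -1.17, -1.29 and -1.10, and -2.66 and -2.36 in the same order. At falls of 2 to 3 GIFN2 stood at 0.015 and 0.15, GIFN3 at 0.075 and 0.19, and GIFN4 at 0.64 and 0.71. GIFN4 thus lay apart from the other analogues among the falls as well as the rises, by more than the letters of each differed.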

How the data were processed

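Transcripts of A549 cells were, per the labels' protocols, amplified with a gene-specific primer panel (AmpliSeq) and sequenced with an Ion S5 XL. The submitters' processing notes name hg19. The deposited values are log2 ratios, named log2(DER) per the file headers. The sources used here do not say how the authors counted, scaled or divided reads, or what DER stands for. Untreated tables are 0 throughout, so a value is read as treated over untreated of the same letter. The header of GIFN2 A names wild type and GIFN2, and groups follow the sample titles.

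Depth is unknown, and no counting interval can be given. Ratios were tested with limma 3.58.1 in R 4.3.3 (robust, group and letter as terms, all 10 libraries, Benjamini-Hochberg, threshold 0.05) over 13276 genes. The letter stands for the untreated library that ratios share. Deviations of A from B correlated at 0.182 between wild type and GIFN2 and at 0.65 between GIFN2 and GIFN3. The libraries of a letter thus did not share them equally, as a single letter term assumes. What this does to the SEs and p-values was not tested. The labels tie no batch to the letter. Other values were computed with Python 3.11.15 and pandas 2.3.3. Few reads means that the treated values of a letter matched whole reads within 0.0012 log2 units over 10 to 100 untreated reads, with under 20 in wild type, GIFN2 or untreated. This held for 1760 tested genes. Untreated numbers under 10 were not tried, and very large rises could hardly be matched.

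Named are the 12 highest and 6 lowest genes by mean wild type ratio, the 6 lowest and 6 highest by the smaller of the letters' differences, and the 3 nearest to 2-fold on either side. Other genes named were chosen after their values were seen. The comparison, groups and rules were chosen with earlier results of these data known.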

Additional observations from a re-analysis of the deposited data

How the results depend on the processing

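The count of genes told apart, 0 with 990 at an unadjusted p under 0.05 (limma), became 3 over genes not at 0 in all 4 libraries, 1 with libraries centred on their median, 4 without few-read genes, 3 without identical values and 15 without few-read genes and centred, the last 2 chosen after seeing the data. It stayed 0 with no replicate block (504 at an unadjusted p under 0.05), with no filter, with a mean trend, on the GIFN2 and wild type libraries alone (334) and without any 1 of the GIFN2, wild type or untreated libraries (0 to 0, with 652 to 3049). The mean difference over raised genes, -0.16, was -0.32 when chosen by wild type of the same letter, -0.26 by the mean of both and -0.49 at 4-fold, and each letter alone gave -0.22 to -0.10. Over lowered genes, 0.091, it was 0.29 and 0.20 by the first 2 of these choices, and 0.021 to 0.16 by letter. The share of the rise, 90.2%, was 82.4% by the same letter and 84.8% at 4-fold, with 86.6% to 93.9% by letter. The share of the fall, 93.2%, was 81.1% by the same letter, with 88.0% to 98.3% by letter. Choosing and measuring in 1 letter lets its error enter both, which lowers shares. Without few-read genes the relative difference at rises of 1 to 2 went from -0.10 to -0.076, and at 2 to 3 from -0.34 to -0.27. Leaving out 1 library turned the sign of these uncalled differences: gene 20811 ran from -0.052 to 0.24 and gene 20806 from -0.099 to 0.33 (turned without GIFN2 B), gene 20804 from -0.017 to 0.071, gene 20810 from -0.62 to 0.086 and gene 1471 from -0.27 to 0.22 (without wild type B), gene 20808 from -0.24 to 0.19 and gene 541 from -0.23 to 0.24 (without wild type B or GIFN2 B), and gene 712 from -0.11 to 0.069 (without wild type A or GIFN2 A). Centring, with or without few-read genes, turned gene 20804 (-0.012) and gene 541 (-0.035).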

Other observations

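Genes 5, 9 and 41 stood closest to a call against wild type, each at an adjusted p of 0.0531 (limma). For genes 5 and 9 it was 0.214 with no replicate block, 0.271 without an untreated library, 0.460 without GIFN2 A, 0.740 without GIFN2 B and 1 in a fit on the 4 GIFN2 and wild type libraries alone. Gene 41, chosen after its values were seen, had 4.38 and 4.24 under wild type and 3.03 and 3.03 under GIFN2, a fitted difference of -1.28 ± 0.11 (SE, n = 2). Under some setting 15 genes were called below wild type and 0 above. Gene 19697 alone of these had a wild type fall, at -1.13 and -1.14, with -2.48 and -2.20 under GIFN2. Its fall under GIFN2 was thus deeper in both letters, with an adjusted p of 0.0883 (limma), and it passed the threshold in 1 setting, without few-read genes and centred on the median (0.0487). Gene 371, likewise chosen after its values were seen, had 1.60 and 1.49 under wild type and 0.63 and 0.37 under GIFN2.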
